A study of Mus musculus with 4 samples.

Results

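The genes described here are 9 components of bone morphogenetic protein (BMP) signaling in the mouse colon: the ligands *Bmp2*, *Bmp4*, *Bmp5* and *Bmp7*, the secreted antagonist *Grem1*, the receptor *Bmpr1a*, and the target genes *Id1*, *Id2* and *Id3*. They were found as gene probes whose name in the array files is one of these symbols, which gave 16 probes for 9 genes out of 27343 gene names on the array. BMP ligands bind pairs of serine/threonine kinase receptors, which phosphorylate Smad1, Smad5 and Smad9. These enter the nucleus with Smad4 and switch on the *Id* genes, which encode inhibitors of basic helix-loop-helix transcription factors. Antagonists such as Gremlin 1 bind the ligands outside the cell. In the intestine, BMP signals are known to favor differentiation, and antagonists made by stromal cells below the crypt limit them near the stem cells, where Wnt signals are high.

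The genes were measured on 4 dual-color arrays, each of which gives the ratio of a pair of samples. In the first experiment, RNA of *Myh11CreErt2/Rspo3* fl/fl mice (Rspo3 KO) was compared with RNA of *Myh11CreErt2/Rspo3*+/+ littermates (control) on 2 arrays, 1 pair of mice per array, with the dyes reversed on array 2. Both genotypes carried the Cre and received tamoxifen at 4 mg per 25 g body weight, 2 weeks before the colon was taken, so the groups differed in the floxed *Rspo3* alleles. Rspo3 is a secreted protein that amplifies Wnt signaling, and this Cre deletes it only in cells that express *Myh11*, such as smooth muscle cells and myofibroblasts. In the second experiment, *Axin2CreErt2/Rosa26-tdTomato* mice were given tamoxifen, crypts were isolated 24 h later, and live epithelial cells with the tdTomato label (Axin2+) were sorted from those without it (Axin2-). Each sort was 1 pool of 3 mice, and both arrays held the same pools with the dyes reversed, so the second experiment counts as 1 replicate and carries no test. All mice were on the C57BL/6 background and were 6 to 8 weeks old. Both experiments measured bulk RNA, in which fewer cells of a type and less RNA per cell cannot be told apart.

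The 4 arrays had 53.1% to 60.3% of gene spots well above background in each channel. The log2 ratios of the KO arrays were unlike each other, with r = 0.03 between the 2 pairs across 15373 genes, which are not independent replicates, whereas the Axin2 arrays gave r = 0.92 across 15880 genes. Of the *Rspo3* probes, 1 was not well above background in any colon channel and the other only on array 2, so the deletion could not be read from them. The sort labels were borne out by *Axin2*, whose ratio of Axin2+ over Axin2- was 1.35 and 1.30 on the log2 scale on the 2 arrays, and by the differentiation keratin *Krt20*, at -3.01 and -2.77. Of 8 crypt base markers, 7 were lower on both KO arrays, with a median log2 ratio of -0.91.

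Each probe is an oligonucleotide of 60 bases. The probes below lie within the coding sequence of a ligand or a target on which the comparisons turn, and show which stretch of each transcript was read. They are given 5′ to 3′ in the sense of the transcript, in lower case throughout because no base is singled out.
*Bmp2*, the probe with 10 spots on each array: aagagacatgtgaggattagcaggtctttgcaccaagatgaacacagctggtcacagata
*Bmp4*, also with 10 spots: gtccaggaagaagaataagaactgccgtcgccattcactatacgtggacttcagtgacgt
*Id2*, the probe that runs up to the stop codon: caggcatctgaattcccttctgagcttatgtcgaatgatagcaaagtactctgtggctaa
*Id3*, the only probe of that gene: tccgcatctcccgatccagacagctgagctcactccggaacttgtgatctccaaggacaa
In the mm9 positions of the array files, the *Bmp2* probe lies at chr2:133386981-133387040 on the plus strand and the *Bmp4* probe at chr14:47003802-47003861 on the minus strand. The *Id2* probe spans chr12:25780183-25780530 on the minus strand and the *Id3* probe chr4:135700075-135700249 on the plus strand, both stretches longer than the probe itself. *Bmp4*, *Bmp2*, *Grem1* and *Id3* are each read by 1 probe, and the other 5 genes by 2 or 3.

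Start regions of 6 of the 9 genes were taken from RefSeq (GRCm38.p6) and searched in the 250 bases before the transcription start. The letters searched were GGCGCC, which BMP-activated Smads are known to bind, GTCTG or its reverse complement CAGAC, the core Smad element, and CTTTGA or its reverse complement TCAAAG, the Wnt-responsive TCF element. The windows of *Id2*, *Id3* and *Grem1* are shown because they belong to targets and the antagonist of the pathway. Capitals mark GGCGCC and either form of GTCTG, and the windows lie at chr12:25096093-25096342 on the minus strand, chr4:136143572-136143821 on the plus strand and chr2:113758649-113758898 on the minus strand.
*Id2*: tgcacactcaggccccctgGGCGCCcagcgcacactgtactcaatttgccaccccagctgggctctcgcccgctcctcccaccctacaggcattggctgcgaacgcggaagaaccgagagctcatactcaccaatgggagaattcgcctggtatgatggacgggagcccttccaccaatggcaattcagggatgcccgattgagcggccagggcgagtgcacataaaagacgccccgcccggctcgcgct
*Id3*: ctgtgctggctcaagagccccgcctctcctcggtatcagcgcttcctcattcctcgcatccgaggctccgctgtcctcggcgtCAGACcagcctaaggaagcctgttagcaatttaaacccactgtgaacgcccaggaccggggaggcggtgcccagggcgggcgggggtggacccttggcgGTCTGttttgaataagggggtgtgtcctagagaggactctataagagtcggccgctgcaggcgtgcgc
*Grem1*: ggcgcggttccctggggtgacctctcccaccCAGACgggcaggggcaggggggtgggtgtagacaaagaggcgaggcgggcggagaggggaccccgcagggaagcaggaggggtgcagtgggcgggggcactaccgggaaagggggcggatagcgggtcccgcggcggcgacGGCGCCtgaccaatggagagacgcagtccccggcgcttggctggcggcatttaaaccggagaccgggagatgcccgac
GGCGCC begins 231 bases before the start of *Id2*, 78 bases before that of *Grem1* and 198 bases before that of *Bmpr1a*. These letters occur in 9.59% of the 32851 RefSeq windows of that length. GTCTG or CAGAC is in the windows of *Id3*, *Grem1* and *Bmp5*, and in 42.2% of all windows. The TCF letters are in none of the 6 windows and in 13.8% of all windows. These matches are descriptions of the sequence, and the arrays do not measure binding.

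Deletion of *Rspo3* was compared with control to ask whether ligands, antagonist, receptor or targets of BMP signaling shifted in the colon 2 weeks later. All 9 genes were measured, and no member passed the test. With limma on the 2 pairs, 0 of 9 had an adjusted p below 0.05, against 37 of 15373 genes (0.241%), and the lowest adjusted p of the 9 was 0.93. At an unadjusted p below 0.05 the count was 1 of 9, *Bmp2*, against 715 of 15373 genes (4.65%). A second rule, after the cut-off the study used, asked for a mean ratio past 1.5-fold with the same sign in both pairs. *Bmp2* met it on the higher side, as did 1.85% of all genes, and no member met it on the lower side, where 2.47% of all genes did.

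*Bmp2*, a ligand expressed toward the top of the crypt, reached 1.31 in pair 1 on the log2 scale, as KO over control, and 0.25 in pair 2. KO was therefore higher in both pairs, but by sizes that hardly resembled each other. The mean was 0.78 ± 0.75 (SD, n = 2 pairs), a 1.72-fold difference with a limma 95% interval of 0.09 to 1.47, an unadjusted p of 0.031 and an adjusted p of 0.93. The log2 channel levels of the KO mice were 10.123 and 9.998, and those of the control mice 8.815 and 9.749. At these levels, which rest on the background fit described below, the KO mice were close together and the control mice far apart. The control mice were labeled with Cy3 in pair 1 and Cy5 in pair 2. Mouse and dye cannot be told apart here. With the background fitted to all spots *Bmp2* was at 0.53 in pair 1 and 0.25 in pair 2, with a mean of 0.39. The size of the gap between pairs thus depended on the background fit of array 1. With median centring the pairs were at 1.98 and -0.33, and the 1.5-fold rule was met in neither setting.

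Among the other ligands, *Bmp4*, a product of crypt mesenchyme, was at -0.17 in pair 1 and 0.69 in pair 2. These values lie on either side of 0, with a mean of 0.26 and an interval of -0.38 to 0.90. *Bmp5*, another mesenchymal ligand, was at 0.14 and 0.82, higher in both pairs with a mean of 0.48 and an interval of -0.12 to 1.08. Its other probes were dimmer: the one at chr9:75675966-75687359 was above background in the KO channel of array 2 alone, with log2 ratios of -0.18 and 0.29. The one at chr9:75745727-75745786 is listed on the opposite strand to the others and was above background in no channel. *Bmp7* had -0.44 in pair 1 and 0.49 in pair 2 from its brightest probe. Its second probe, which starts 79 bases away, gave -0.41 and 0.51, so the sign change between pairs was the same in both probes. The mean of *Bmp7* was 0.02, with an interval of -0.63 to 0.68.

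**Figure D1:**
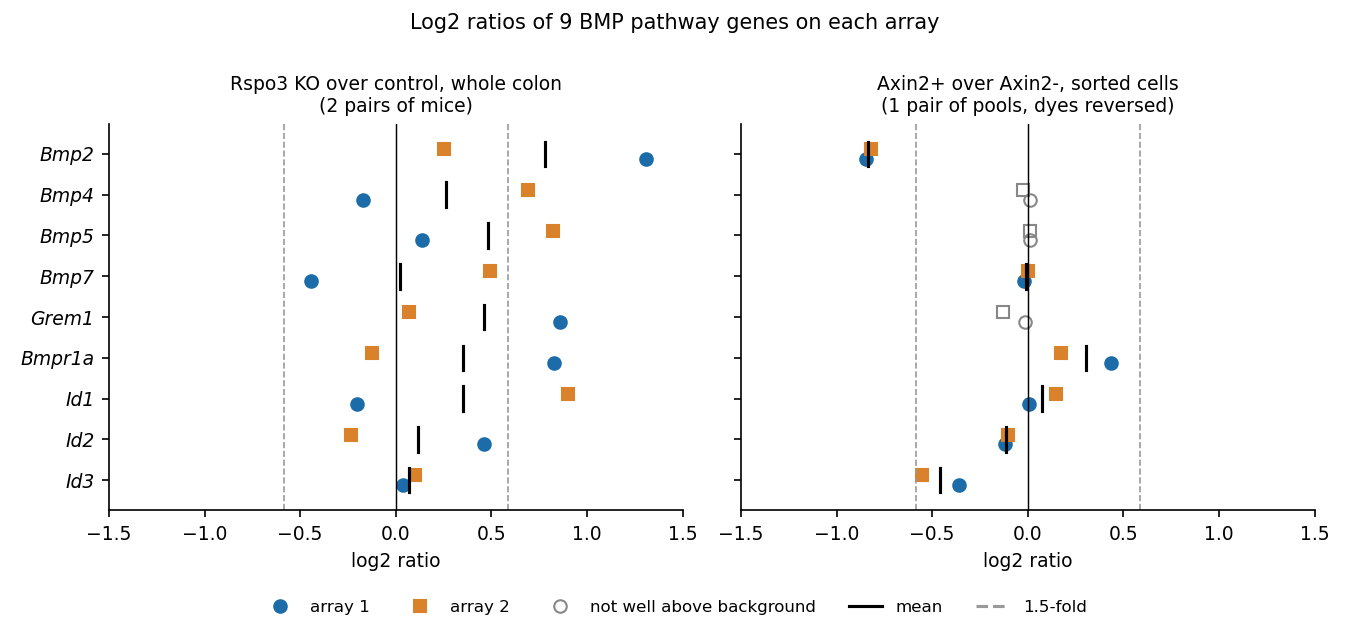
Log2 ratios (x axis) of the brightest probe of each gene (y axis), with KO over control on the left and Axin2+ over Axin2- on the right. Circles are array 1, squares array 2, black bars the mean of both, open gray symbols probes not well above background, and dashed lines 1.5-fold. On the left the 2 pairs of mice lie far apart for 8 of the 9 genes, and on the right the dye-swapped arrays lie 0.02 to 0.26 apart where measured, with *Bmp2* past 1.5-fold.

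The antagonist *Grem1* was at 0.86 in pair 1 and 0.07 in pair 2, with a mean of 0.46 and an interval of -0.16 to 1.08. As for *Bmp2*, the KO mice were nearer to each other, at log2 levels of 9.36 and 9.98, than the controls, at 8.50 and 9.91. With the background fitted to all spots *Grem1* was at 0.23 and 0.07, with a mean of 0.15. With median centring it was at 1.47 and -0.52, so its ratios depended on the processing. *Bmpr1a*, the main type I BMP receptor of the crypt epithelium, was at 0.83 and -0.13 by its brightest probe. A second probe, 3351 bases away, gave 0.09 and 0.48, so the probes of this receptor placed the larger ratio in different pairs. The mean of the brightest probe was 0.35, with an interval of -0.31 to 1.01.

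The 3 targets gave no shared direction. *Id1* was at -0.20 and 0.90, with a mean of 0.35, and a second probe that starts 10 bases away gave -0.01 and 0.73. *Id2* was at 0.46 and -0.23 by its brightest probe. Its other probes gave 0.68 and -0.72, and 0.42 and -0.65, so all 3 probes were higher in the KO mouse of pair 1 and lower in that of pair 2. *Id3* was at 0.04 and 0.10, the closest pair of values among the 9 genes with loess. With median centring it was at 0.78 and -0.53, and *Bmp5* was closest, at 0.41 and 0.50. The loess mean of *Id3*, 0.07, had a limma interval of -0.46 to 0.60, which spans 0.

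The probes spotted 10 times give the technical error within an array. For *Bmp2*, the spots of a KO array had a pooled SD of 0.06, and the means of the pairs were 1.06 apart. For *Bmp4* the pairs were 0.87 apart against a spot SD of 0.07, and for *Bmp7* 0.93 apart against 0.06. The pairs were different mice in reversed dye orders, so these values are descriptions and no test of either. On the Axin2 arrays, where the same RNA was hybridized in both dye orders, the *Bmp2* means were 0.03 apart against a spot SD of 0.11. The *Bmp7* means there were less than 0.01 apart against a spot SD of 0.09.

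**Figure D2:**
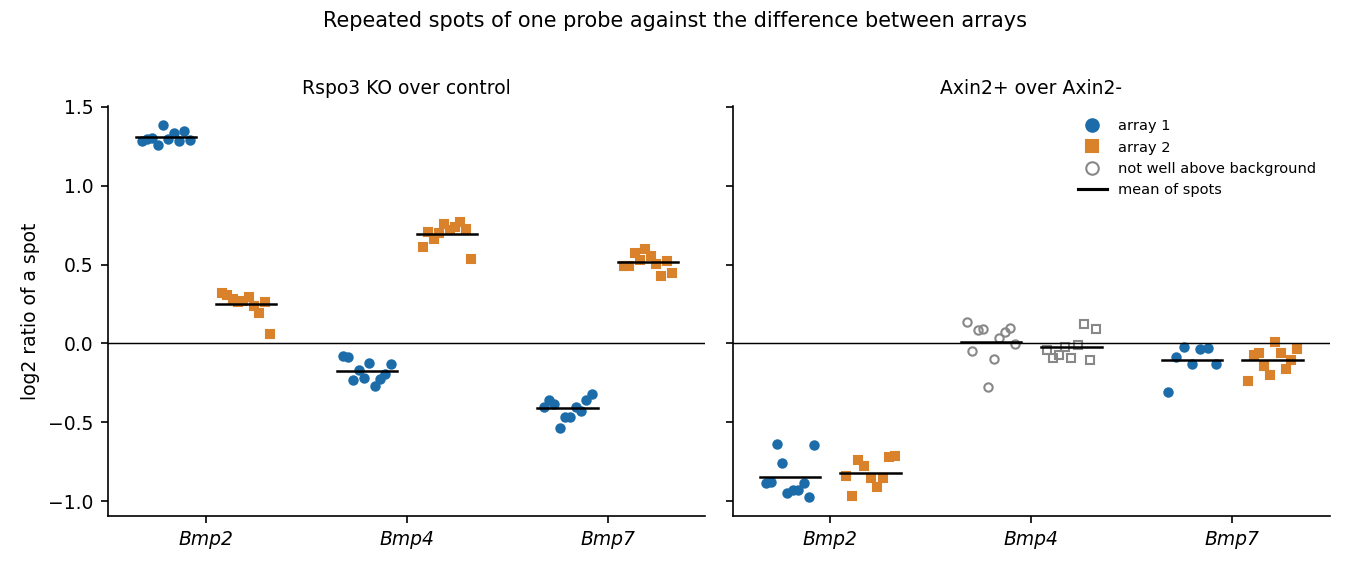
Log2 ratio of each spot (y axis) of the *Bmp2*, *Bmp4* and *Bmp7* probes that are printed 10 times per array, without outlier spots. Circles are array 1, squares array 2, black bars the mean of the spots, and open gray symbols spots of a probe not well above background. In the KO comparison (left) the arrays, which hold different mice, stand 0.87 to 1.06 apart, and in the Axin2 comparison (right) the arrays overlap.

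The mean of Cy5 over Cy3 on the 2 KO arrays before turning gives the ratio part that keeps its sign with the dye. With the dyes reversed, it restates the difference between pairs given above and is no separate observation. It was -0.47 for *Bmp7*, -0.55 for *Id1*, 0.53 for *Bmp2* and 0.48 for *Bmpr1a*, and its size exceeded the median over all genes, 0.17, in 8 of 9 genes. On the Axin2 arrays the same quantity lay between -0.07 and 0.13 for the 6 genes measured there. The KO arrays held different mice in the 2 orders, so that a dye effect and a difference between pairs cannot be told apart. The means were also read beside markers of other cell types. For *Bmp2*, whose ratio was larger in pair 1, the 4 surface enterocyte markers measured, of 8 listed, had medians of 0.83 in pair 1 and -0.62 in pair 2. Their summed level was 53879.5 and 31194 units in KO mice and 33194 and 52456 units in controls. Of these markers, 3 had opposite signs in the 2 pairs and 1, *Ceacam1*, was higher in both, at 1.14 and 0.06. *Krt20*, another listed surface marker, had no usable value in pair 1 and was at 0.86 in pair 2, against the median there. The 6 immune cell markers measured had medians of -0.31 in pair 1 and -0.0012 in pair 2, and the 8 endothelial markers -0.04 and 0.13. The 7 epithelial markers measured had medians of 0.03 in pair 1 and -0.15 in pair 2. Of 10 fibroblast markers, 4 were higher on both KO arrays, none lower on both and 6 of opposite signs. Their medians were 0.25 in pair 1 and 0.41 in pair 2. Over all 15373 genes, 3120 were higher on both arrays and 3679 lower on both, with medians of -0.0025 and -0.025. The summed fibroblast marker level was 136015 and 149908 units in KO mice and 115690 and 120903 units in controls. The 8 smooth muscle markers measured had medians of 0.20 and 0.19. The mean ratio was above 0 for all 9 BMP genes, against a median of -0.01 over all genes. However, 5 of the 9 had opposite signs in the 2 pairs, a share like that of all genes (8574 of 15373). The mean of *Id2* was -0.0067 when its probes were averaged. The part of cell content in these means, stromal or surface, was not tested.

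Axin2+ cells were compared with Axin2- cells to ask which BMP components differ between the Wnt-responsive lower crypt and the remaining epithelium. Of the 9 genes, 6 were measured in the sorted cells. *Bmp2* was past 1.5-fold on the lower side in Axin2+ cells, as were 6.92% of all genes, and no member was past it on the higher side, where 7.87% of all genes were. On array 2 *Bmp2* passed the filter on dim probes only through the Axin2- channel, where it was high, so its count of 1 is a description. When both channels had to be well above background, no member was past 1.5-fold. *Bmp4*, *Bmp5* and *Grem1* were not well above background in either sort.

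*Bmp2* had log2 ratios of Axin2+ over Axin2- of -0.85 and -0.82 on the 2 arrays, a mean of -0.83 or 0.561-fold. Its log2 level was 6.93 and 7.28 in the Axin2- pool and 6.08 and 6.46 in the Axin2+ pool. In the Axin2- channel every spot used was well above background, 10 on array 1 and 9 on array 2. In the Axin2+ channel this held for 5 of 10 spots and 1 of 9, so the Axin2+ level was close to the floor of the measurement. The offset added during background correction compresses such ratios: with an offset of 16 in place of 50 the mean was -1.37, and the log ratios of the scanner software gave -3.08. The direction was the same in each setting that gave a value, whereas the size depended on the treatment of the background.

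**Figure D3:**
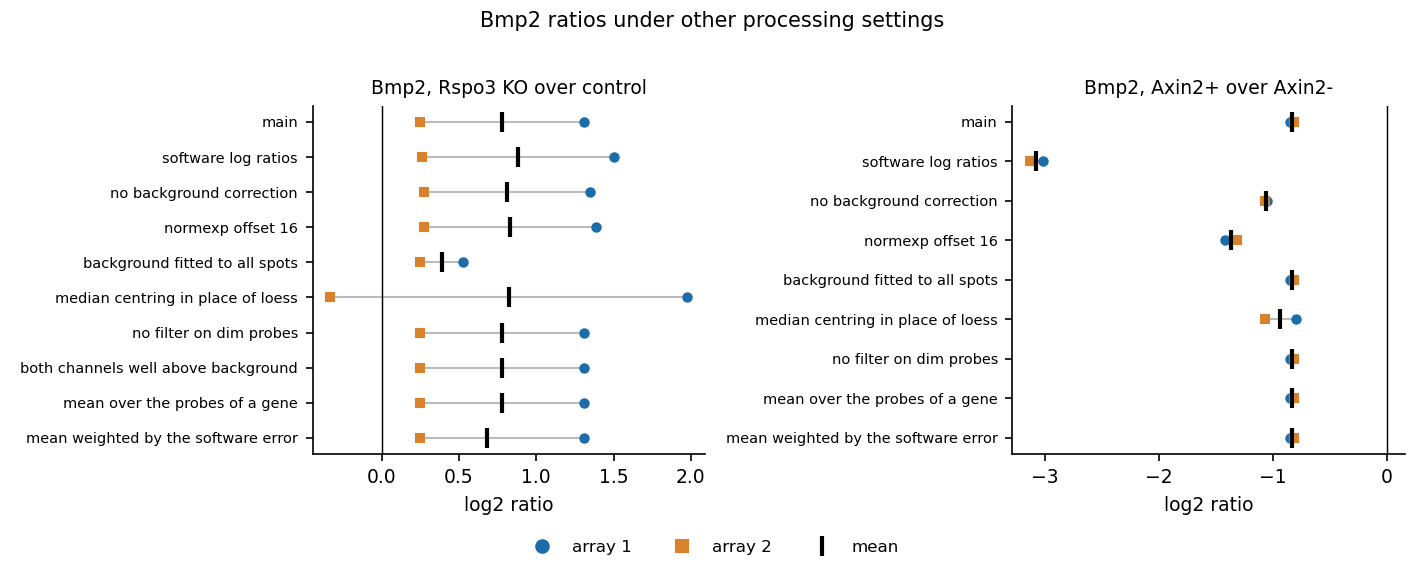
Log2 ratio of *Bmp2* (x axis) under the processing described here (main) and each alternative (y axis), with circles for array 1, squares for array 2 and black bars for the mean. In the KO comparison (left) the mean stays above 0 while array 2 falls below 0 under median centring, and in the Axin2 comparison (right) the mean runs from -0.83 to -3.08.

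*Id3* was the next lowest member in Axin2+ cells, at -0.36 and -0.56, a mean of -0.46 or 0.728-fold, which falls short of 1.5-fold. The Axin2- levels were 11.08 and 11.14 and the Axin2+ levels 10.72 and 10.58, so Axin2+ cells were lower on both arrays with loess. With median centring *Id3* was at 0.68 and -1.93, and the like sign was lost. *Id2* was at -0.12 and -0.10 by its brightest probe and at -0.26 and -0.44 by the coding probe shown above. The remaining probe, 103 bases from the coding one, gave 0.41 and 0.10 in the opposite direction, so that the direction of *Id2* depended on the probe. *Id1* was at 0.01 and 0.15, and at 0.01 and 0.06 by the second probe.

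*Bmpr1a* was at 0.43 and 0.17 by its brightest probe, higher in Axin2+ cells on both arrays with loess, with a mean of 0.30. With median centring it was at 1.48 and -0.90, and averaging the probes lowered the mean to 0.11. The dimmer probe gave -0.14 and -0.03, so its direction was not shared by the probes. *Bmp7* was at -0.02 and 0.00 by the brightest probe and at -0.11 and -0.11 by the probe with 10 spots. With median centring, *Bmp2* alone of the 6 genes kept the same sign on both arrays. With loess, the 2 arrays of the 6 genes were between 0.02 and 0.26 apart, which measures technical error only, since 1 pool of each sort was hybridized.

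The genes also differed in where they were detected. All 9 were well above background in all 4 colon channels. *Bmp4*, *Bmp5* and *Grem1* were well above background in none of the 4 sorted cell channels, and so were 8.41% of the 14237 genes detected in all 4 colon channels. *Bmp4* had colon levels of 8.51 to 9.29 and sorted cell levels of 6.08 to 6.11, *Bmp5* 7.30 to 8.12 against 5.98 to 6.01, and *Grem1* 8.50 to 9.98 against 5.86 to 6.10, all on the log2 scale. The experiments were labeled and normalized separately, so these levels are set side by side and carry no fold. Of the marker genes detected in all 4 colon channels, 5 of 9 for fibroblasts, 4 of 7 for smooth muscle and 5 of 8 for endothelium were likewise at background in the sorted cells, among them *Pdgfra*, *Myh11* and *Pecam1*. None of 5 epithelial markers was, and of 6 immune cell markers only *Laptm5* was.

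**Figure D4:**
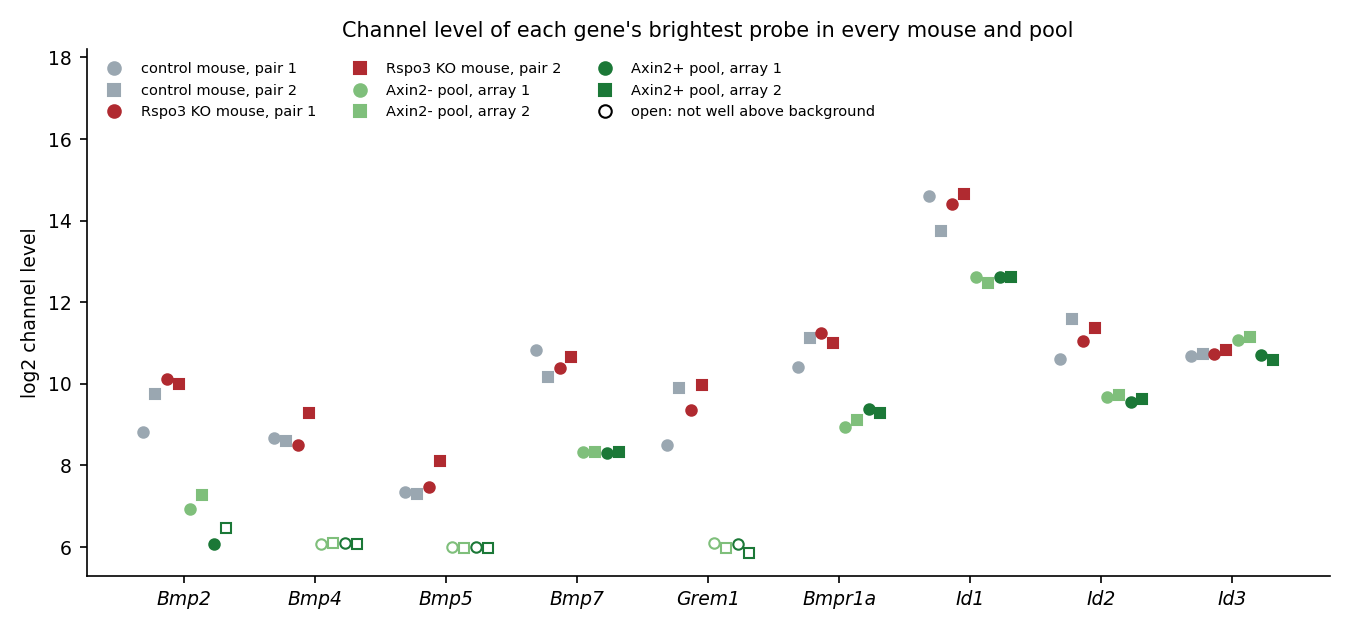
Log2 channel level (y axis) of the brightest probe of each gene (x axis) in each mouse and in each pool, with circles for array 1 and squares for array 2. Gray are control mice, red Rspo3 KO mice, light green the Axin2- pool and dark green the Axin2+ pool, and open symbols are channels not well above background. *Bmp4*, *Bmp5* and *Grem1* have open symbols in all 4 sorted cell channels. Levels are comparable within a gene and an experiment only.

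The wider pathway was read from a list of 64 genes that includes the 9. In the KO comparison 51 were measured, 0 were called by limma and 3 had an unadjusted p below 0.05, a share close to the 4.65% of all genes. The median of the mean log2 ratios was 0.08 over the list and -0.01 over all genes. Beside *Bmp2*, only *Bmp3* and *Hhex* were past 1.5-fold with the same sign in both pairs, and both were lower in KO. *Bmp3*, a BMP family member that counteracts other BMPs, was at -0.96 and -1.27, with a mean of -1.12 ± 0.23 (SE), an unadjusted p of 0.0016 and an adjusted p of 0.23 in limma. *Hhex*, a homeobox transcription factor, was at -0.90 and -0.53, with an adjusted p of 0.74. By role, 9 ligands, 17 antagonists, 10 receptors and co-receptors, 6 Smads and regulators and 9 targets and feedback genes were measured. Opposite signs in the 2 pairs were found in 31 of the 51, and 44.2% of all genes had the same sign in both.

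In the sorted cells 42 of the 64 genes were measured, of which 3 were past 1.5-fold on the higher side and 3 on the lower side in Axin2+ cells, shares close to the 7.87% and 6.92% of all genes. The median of the mean log2 ratios was -0.11, against -0.005 over all genes. Lower in Axin2+ cells beside *Bmp2* were *Nbl1*, a DAN family antagonist, at -1.18 and -1.37, and the ligand *Bmp8a* at -0.86 and -0.73. The higher genes were *Rgmb*, a BMP co-receptor, at 1.0 and 0.85, and the transducers *Smad5*, at 0.78 and 0.67, and *Smad4*, at 0.84 and 0.51. With median centring, or with the mean over all probes of a gene, the 3 lower genes stayed past 1.5-fold and the 3 higher ones did not. No target or feedback gene was past 1.5-fold, and 6 of the 9 measured were lower on both arrays and 3 higher on both. Over all 15880 genes, 6618 were lower on both arrays and 6521 higher on both. Without background correction *Smad6* was past 1.5-fold at -0.62, and with an offset of 16 *Smad6* and *Hhex* were, at -0.71 and -0.61. The software ratios placed both of these past it on the lower side and *Atoh8* on the higher side, at 0.72. Of the 14237 genes detected in all colon channels, 8.41% were at background in all sorted cell channels. By role this held for 8 of 16 antagonists, 3 of 9 ligands and 1 of 10 receptors and co-receptors. It held for 0 of 6 Smads and regulators and 0 of 9 targets, and the differences between roles were not tested.

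**Figure D5:**
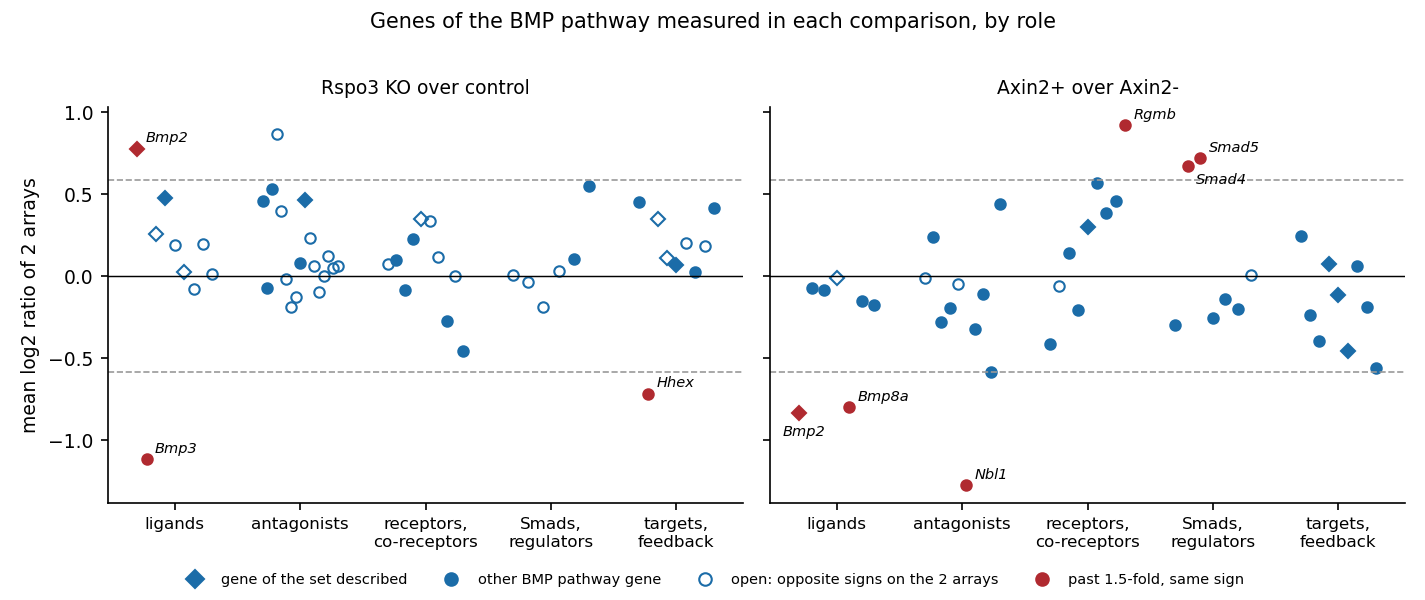
Mean log2 ratio of 2 arrays (y axis) for each BMP pathway gene measured, by role (x axis), in the KO comparison (left) and in the sorted cells (right). Diamonds are the genes described above, circles the other pathway genes, open symbols genes with opposite signs on the 2 arrays, red those past 1.5-fold (dashed lines) with the same sign. In the KO comparison 31 of 51 genes are open, and the 3 in red are *Bmp2*, *Bmp3* and *Hhex*.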

How the data were processed

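RNA was hybridized to dual-color Agilent whole mouse genome arrays. Per the file headers, the authors scanned them and extracted them with Agilent Feature Extraction 11.5.1.1. The deposited files give, per spot, mean and local background intensity in each dye, a log10 ratio of Cy5 over Cy3, and flags for outlier spots and for signal well above background. The deposited series value table holds the same log10 ratios. The study combined the 2 arrays of an experiment by error-weighted averaging in Rosetta Resolver with a 1.5-fold cut-off. The labels give distal colon and TRIzol, and the methods colon and a column kit, for the KO arrays.

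Intensities were background-corrected with normexp (offset 50), leaving spots flagged as background outliers out of its fit, and ratios were normalized by loess within each array (limma 3.58.1, R 4.3.3). Control spots and outlier spots (124 to 510 gene spots per array) were left out, spots of a probe averaged, and ratios turned to KO over control and Axin2+ over Axin2-. Of 41174 probes, 33728 were named through RefSeq and 7446 kept the name in the files. Each gene was read by its brightest probe, kept if 0.5 or more of its spots exceeded background by the flag in 1 channel or both, on each array. KO ratios were tested against 0 with limma (lmFit, eBayes, Benjamini-Hochberg over all genes, threshold 0.05). The test was run on simulated data first. The fit had 1 residual degree of freedom per gene and 6.75 prior ones estimated over all genes. Each SE, interval and p-value therefore rests mostly on the variance over all genes and less on the 2 pairs of that gene. They cover no spread beyond these 2 pairs of mice, and 2 arrays per experiment limit the precision. Channel levels come from the loess-normalized ratios after Aquantile scaling within each experiment. All 9 genes are named with every probe; other pathway genes are named only when past a threshold. Alternatives were the software ratios, the value table, other background corrections, centring, filters, probe averaging, weights, models, a 2-fold threshold and single arrays. The members and gene lists were chosen with earlier results of these data known.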

Additional observations from a re-analysis of the deposited data

How the results depend on the processing

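The mean KO ratio kept its sign in each setting other than single arrays for 8 of the 9 genes. The exception was *Id2*, at -0.0067 when its probes were averaged. Not every setting could change a sign. The filters on dim probes and the fits of all 4 arrays gave the main means again, and the value table repeats the software ratios. No member passed the limma threshold in any setting, the lowest adjusted p being 0.11 for *Bmp2* in a fit of all 4 arrays with a dye term. Both fits of all 4 arrays took part of their variance from the Axin2 arrays, which repeat 1 pair of pools. Technical error thus entered their p-values in place of differences between mice, and the dye term was shared by both experiments. *Bmp2* kept a mean above 0, between 0.39 with the background fitted to all spots and 0.88 with the software ratios. Under median centring its pairs were at 1.98 and -0.33, so the rule of like signs was lost. Median centring left 3 of the 9 genes with like signs in KO, 1 of them (*Bmp5*) among the 4 with loess, and 1 of 6 (*Bmp2*) in the sorted cells against 5 with loess. With loess, 44.2% of all genes had like signs in KO and 82.7% in the sorted cells. The shares under median centring were not computed, so these counts describe the setting and not the members.

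Members past 1.5-fold in KO numbered 2 with the software ratios, the value table or an offset of 16 (*Bmp2* and *Bmp5*), 0 with the background fitted to all spots, median centring or a 2-fold threshold, and 3 on each array alone (*Bmp2*, *Grem1* and *Bmpr1a* on array 1, *Bmp4*, *Bmp5* and *Id1* on array 2). KO pathway genes numbered 5 with the software ratios, the value table or an offset of 16, 1 with the background fitted to all spots or a 2-fold threshold, and 9 to 10 on single arrays. In the sorted cells, members numbered 0 when both channels had to be above background or at 2-fold. Pathway genes there numbered 17 with the software ratios or the value table, 10 with an offset of 16, 3 with median centring or probe averaging, and 1 at 2-fold. The share of all genes past the threshold was not computed for each setting. These counts therefore describe the settings and are no result about the members or the pathway. All genes called in KO, 37 here, numbered 127 with the software ratios, the value table or an offset of 16, 71 without background correction, 59 in a fit of all 4 arrays and 281 with a dye term in it. They numbered 1 with the background fitted to all spots, 8 with median centring, 5 with probe averaging and 0 without the filter on dim probes. The fits of all 4 arrays have the limit given above. The cause of these differences between settings was not tested. The KO test used the pairing, since each ratio compares 1 KO mouse with 1 control mouse, and the labels give no number that pairs samples further. No test can be made on 1 KO array. Signal close to background limits *Bmp2* in Axin2+ cells, and *Bmp4*, *Bmp5* and *Grem1* in both sorts.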
